A study of Rattus norvegicus with 18 samples.

Results

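Acyl-CoA thioesterases split an acyl-CoA into the free fatty acid and coenzyme A. The cell uses them to set how much activated fatty acid and how much free coenzyme A it holds in the cytosol, the mitochondrion and the peroxisome. In rodent liver several of them are known to be induced by fasting and by ligands of PPAR alpha, the nuclear receptor that switches on fatty acid oxidation, and the newborn moves at birth from placental glucose to fat-rich milk.

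The genes described here are Acot1, Acot2, Acot3, Acot4, Acot5, Acot7, Acot8 and Acot12, taken by their gene symbols on the array. A gene with several transcript clusters, the array's probe sets for a whole gene, was to be represented by the cluster chosen by its brightness. Each of the 8 had 1 cluster, so brightness chose between none, but the family itself was taken up with earlier results of these arrays known, the 12 h change of Acot1 among them. They are 8 of 18926 genes with a symbol of their own. Liver RNA of Sprague Dawley rats was measured on Affymetrix Rat Transcriptome 1.0 arrays, 18 in all and 3 per age. Fetuses stood at embryonic day 21 (E21), and newborns were taken 30 min, 4 h, 12 h, 1 day or 7 days postnatally. The E21 fetuses had been delivered surgically at term and had not breathed, the other animals were untreated, and livers of each age came from triplicate dams. How many pups made up a sample, their sex and whether they had suckled are not stated in the labels, so neither milk nor fasting can be set against a value.

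All levels below are log2 of the deposited linear intensities, and a difference of 1 on that scale is a doubling. An array's level for 1 gene cannot be set against its level for another, because probes differ in brightness. Neuron and kidney markers on all arrays and pancreas markers before 7 days served as genes taken to be silent, and their 285 readings lay between 3.19 and 6.72 with a median of 4.62 and a 95th percentile of 5.48. The highest is a single reading, of Ctrb1 on E21 replicate 1, and the median gene of an array lay at 6.28 to 6.39, so 6.72 is a strict bound under which the median gene of every array falls. A reading at or below 6.72 is therefore within the range of such genes, and where E21 arrays lay there a lower bound is given with those arrays set to 6.72. Replicates of an age correlated at 0.987 to 0.994 over genes and arrays of different ages at 0.948 to 0.993. The mean of 9 hepatocyte markers was 18.03 to 18.29 on every array. Among them Serpina1 read only 7.33 to 7.59, while Alb and Ahsg read 19.92 to 19.93, near the top of the scale. All 7 brown adipose tissue markers were within the range of silent genes at every age. The 6 neuron and 4 kidney markers helped set that range, so they lie within it by construction.

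Acot1 to Acot5 shared a course, each lowest at E21, 30 min and 4 h and far higher at 12 h and 1 day. By 7 days they were lower again except in Acot5. Age means of Acot7 and Acot8 spanned 0.5 and 0.89 on the log2 scale, and Acot12 passed no test. Because its 12 h change was known when the family was taken up, Acot1 is described with no test. Tests are given for the other 7 genes, chosen as its family, from a limma fit over all 18 arrays with Benjamini-Hochberg adjustment over all 18926 genes, two-sided, at an adjusted p of 0.05. As the family was chosen with earlier results known, these tests are not independent of that choice. This holds most for Acot2, which correlated with Acot1 at 0.996 and may bind its RNA.

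**Figure D1:**
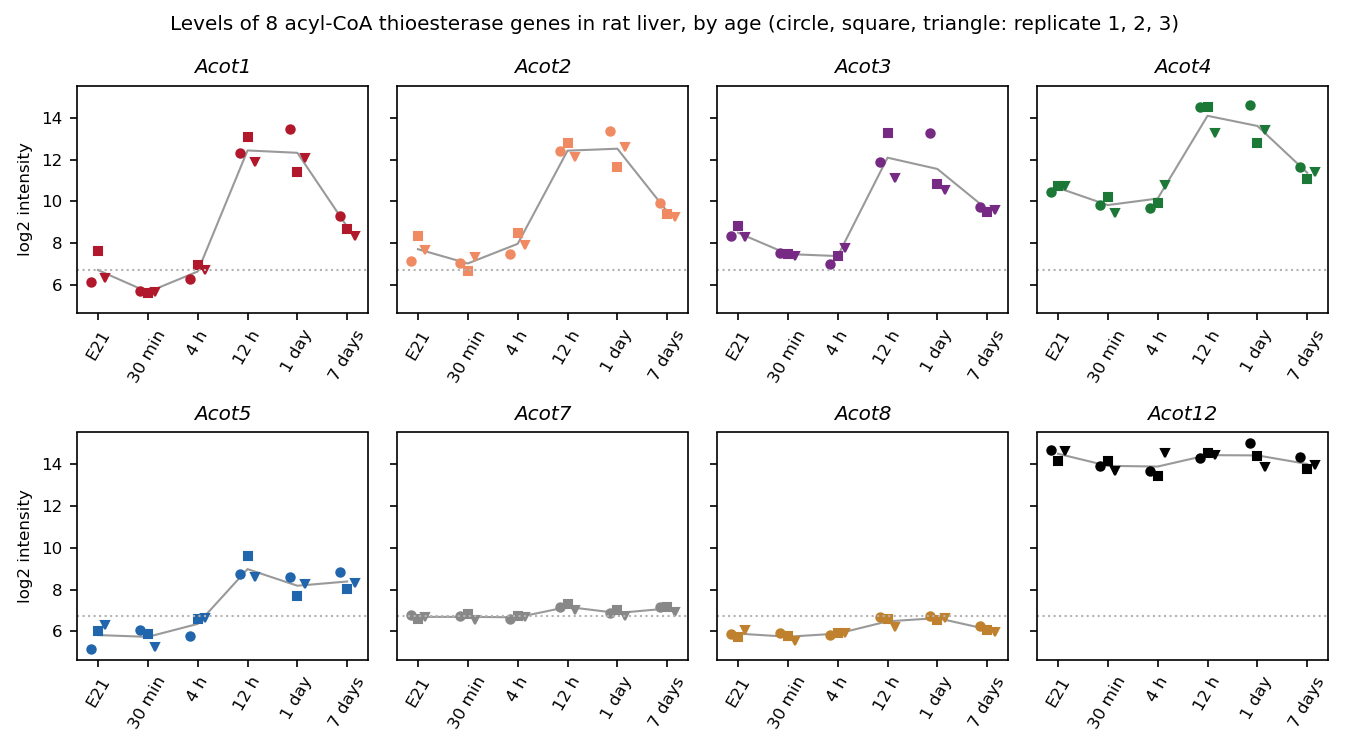
Log2 intensity (y axis) of each of the 8 thioesterase genes at the 6 ages (x axis, E21 to 7 days). Circles, squares and triangles are replicates 1, 2 and 3, grey lines join age means, and the dotted line is 6.72, the highest reading among genes taken to be silent. Acot1 to Acot5 stand highest at 12 h or 1 day, while the arrays of Acot12 lie between 13.44 and 15.03 at all ages.

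Acot1 encodes the cytosolic long-chain enzyme of the family. Its 3 arrays read 6.14, 7.63 and 6.35 at E21, 5.69, 5.62 and 5.64 at 30 min, and 6.26, 6.96 and 6.69 at 4 h. They read 12.33, 13.08 and 11.9 at 12 h, 13.47, 11.42 and 12.08 at 1 day, and 9.28, 8.69 and 8.36 at 7 days. The 12 h and 1 day ranges overlapped each other and lay above every other array, and the 7 day arrays lay between them and the earlier ages. In size, 12 h exceeded E21 by 5.73 ± 0.47 (moderated standard error), or 53-fold, and by at least 42.5-fold with the dim E21 arrays set to 6.72. The excess over E21 was 5.62 at 1 day and 2.07 at 7 days, at least 5.3 and 1.75 with that bound. Before 12 h the gene did not exceed E21: the difference was -1.06 at 30 min and -0.07 at 4 h, with 3 of 3 arrays at 30 min within the range of silent genes.

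Acot2 encodes the mitochondrial counterpart of Acot1, with which it shares most of its coding sequence. The arrays read 7.14, 8.33 and 7.65 at E21, 7.06, 6.66 and 7.35 at 30 min, 7.49, 8.49 and 7.91 at 4 h, 12.4, 12.77 and 12.11 at 12 h, 13.35, 11.63 and 12.58 at 1 day, and 9.91, 9.39 and 9.23 at 7 days. As in Acot1, 12 h and 1 day stood at the top, 7 days between, and the earliest 3 ages below them. Among those 3, E21 overlapped with both 30 min and 4 h in Acot2, and 4 h lay above 30 min without overlap. Acot2 rose 26.4-fold at 12 h (4.72 ± 0.39, limma adjusted p = 6.00e-06), 28-fold at 1 day (4.81, 1.24e-05) and 3.49-fold at 7 days (1.8, 0.00353), all against E21. Between neighbouring times, 12 h exceeded 4 h by 4.46 (limma adjusted p = 7.45e-06). It fell by 3 on the log2 scale at 7 days against 1 day (limma adjusted p = 9.54e-05).

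The likeness of the 2 coding sequences bears on how far Acot1 and Acot2 are separate measurements, since RNA of either gene may bind probes of the other. Over the 18 arrays their levels correlated at 0.996, and their deviations from the age means, which leave out the differences between ages, at 0.913. The readings of the 2 probe sets did not move by the same amount. At 12 h Acot1 had gained more than Acot2 over its own E21 mean by 0.92, 1.31 and 0.78 on the 3 arrays, and at 1 day by 1.13, 0.79 and 0.51. At 7 days the gap was 0.37, 0.3 and 0.12, while at 30 min it was -0.37, -0.04 and -0.71. With readings of both genes below 6.72 set to it, the gap was 0.61, 0.99 and 0.47 at 12 h and 0.81, 0.48 and 0.19 at 1 day. At 7 days it was then 0.05, -0.02 and -0.19, and at 30 min 0.34, 0.68 and 0.05, so the sign at these 2 ages rests on readings within the range of silent genes. Cross-hybridization between the pair was not tested, so neither gene's change is shown to be free of the other's RNA.

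**Figure D2:**
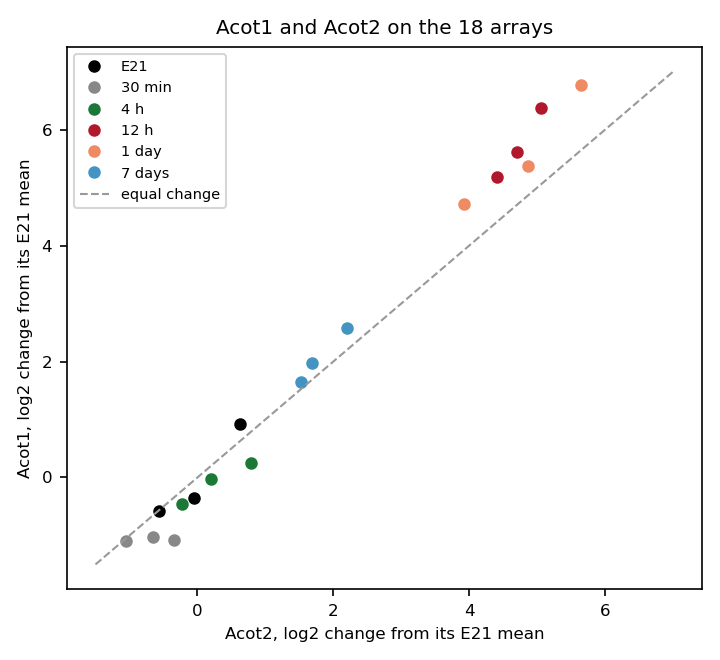
Change of Acot1 (y axis) against change of Acot2 (x axis) on each of the 18 arrays, in log2 units from each gene's own E21 mean, coloured by age. All arrays of 12 h, 1 day and 7 days lie above the dashed line of equal change, and all arrays of 30 min and 4 h lie below it. With dim readings set to 6.72 the side of the line holds at 12 h, 1 day and 4 h but not at 7 days or 30 min.

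Acot3, Acot4 and Acot5 encode enzymes that in mouse are peroxisomal, Acot3 for long-chain acyl-CoAs, Acot4 for succinyl-CoA and Acot5 for medium-chain acyl-CoAs. Acot3 read 8.33, 8.84 and 8.31 at E21, 7.54, 7.49 and 7.39 at 30 min, 7.01, 7.36 and 7.76 at 4 h, 11.88, 13.28 and 11.11 at 12 h, 13.29, 10.83 and 10.53 at 1 day, and 9.72, 9.5 and 9.59 at 7 days. Its lowest arrays were those of 30 min and 4 h, which lay below all 3 E21 arrays. Of all genes, 6.77% had 30 min arrays wholly below those of E21 and 10.2% had 4 h arrays wholly below them, and neither difference of Acot3 passed (-1.02, limma adjusted p = 0.758, and -1.12, 0.35). Acot3 rose 12.1-fold at 12 h (3.59 ± 0.58, limma adjusted p = 0.00167) and 8.31-fold at 1 day (3.06, 0.00712), and differed from E21 by 1.11 at 7 days (0.208). Without 12 h replicate 2 the 12 h rise was 8-fold (3, limma adjusted p = 0.0086), and without 1 day replicate 1 the 1 day rise was 4.56-fold (2.19, 0.0134). With only 1 day and E21 in the fit the 1 day call was lost (0.0854). It fell by 1.95 on the log2 scale at 7 days against 1 day (limma adjusted p = 0.0285). That call was lost without 1 day replicate 1 (-1.08, 0.107) and without each 7 day replicate in turn.

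Acot4 read 10.47, 10.75 and 10.72 at E21, 9.82, 10.19 and 9.45 at 30 min, 9.67, 9.93 and 10.8 at 4 h, 14.5, 14.51 and 13.28 at 12 h, 14.62, 12.81 and 13.4 at 1 day, and 11.65, 11.07 and 11.39 at 7 days. Every 12 h and 1 day array lay above every array of the other ages. Acot4 rose 10.9-fold at 12 h (3.45 ± 0.42, limma adjusted p = 2.08e-04) and 7.79-fold at 1 day (2.96, 9.54e-04) against E21. At 7 days it was 0.72 above E21, which did not pass (limma adjusted p = 0.27) although the 3 arrays lay above those of E21, and it fell by 2.24 against 1 day (0.00157).

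Acot5 began within the range of silent genes: it read 5.14, 6.02 and 6.3 at E21, 6.04, 5.89 and 5.27 at 30 min, and 5.79, 6.61 and 6.66 at 4 h. It then read 8.74, 9.61 and 8.59 at 12 h, 8.61, 7.68 and 8.26 at 1 day, and 8.82, 8.01 and 8.33 at 7 days. The 9 arrays from 12 h on lay above the 9 before them, and these later ages overlapped each other. Against E21 the difference was 3.16 ± 0.37 at 12 h (limma adjusted p = 1.57e-04), 2.36 at 1 day (0.00187) and 2.57 at 7 days (1.22e-04), or at least 4.79-fold, 2.75-fold and 3.17-fold higher. Where Acot2 and Acot4 fell after 1 day, 7 days against 1 day gave 0.2 for Acot5 (limma adjusted p = 0.79), and the difference between the genes was not tested.

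Acot7 and Acot8 are the cytosolic enzyme best known from brain and a peroxisomal enzyme of broad substrate range. Acot7 read 6.78, 6.6 and 6.69 at E21, 6.74, 6.81 and 6.53 at 30 min, 6.59, 6.74 and 6.68 at 4 h, 7.18, 7.3 and 7.03 at 12 h, 6.86, 7.04 and 6.73 at 1 day, and 7.16, 7.18 and 6.93 at 7 days. It stayed close to the highest reading of silent genes throughout. Acot7 rose by 0.48 ± 0.11 at 12 h (limma adjusted p = 0.0176) and by 0.4 at 7 days (0.0166) against E21, and differed by 0.19 at 1 day (0.424). The 12 h call was lost without E21 replicate 2 or 3 or 12 h replicate 1 or 2, and the 7 day call without E21 replicate 2 or 7 day replicate 1 or 2.

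Acot8 read 5.87, 5.73 and 6.07 at E21, 5.92, 5.78 and 5.52 at 30 min, 5.82, 5.93 and 5.92 at 4 h, 6.67, 6.57 and 6.19 at 12 h, 6.72, 6.56 and 6.62 at 1 day, and 6.26, 6.04 and 5.99 at 7 days. No array exceeded 6.72, so its differences are given with no fold. Acot8 rose by 0.59 ± 0.14 at 12 h (limma adjusted p = 0.017) and by 0.75 at 1 day (0.00538) against E21, and fell by 0.54 at 7 days against 1 day (0.0115). The 12 h call was lost without E21 replicate 2 or 12 h replicate 1 or 2.

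Acot12, the cytosolic acetyl-CoA hydrolase of liver, read 14.7, 14.16 and 14.66 at E21, 13.9, 14.18 and 13.7 at 30 min, 13.69, 13.44 and 14.55 at 4 h, 14.32, 14.54 and 14.46 at 12 h, 15.03, 14.38 and 13.87 at 1 day, and 14.34, 13.76 and 13.95 at 7 days. All 18 arrays lay far above the range of silent genes. Neighbouring ages in the order of its means all overlapped, no comparison passed, and the F test over the 6 ages gave an adjusted p of 0.3 (limma). At 12 h it differed from E21 by -0.06 ± 0.29 (limma adjusted p = 0.968), where Acot2 differed by 4.72.

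**Figure D3:**
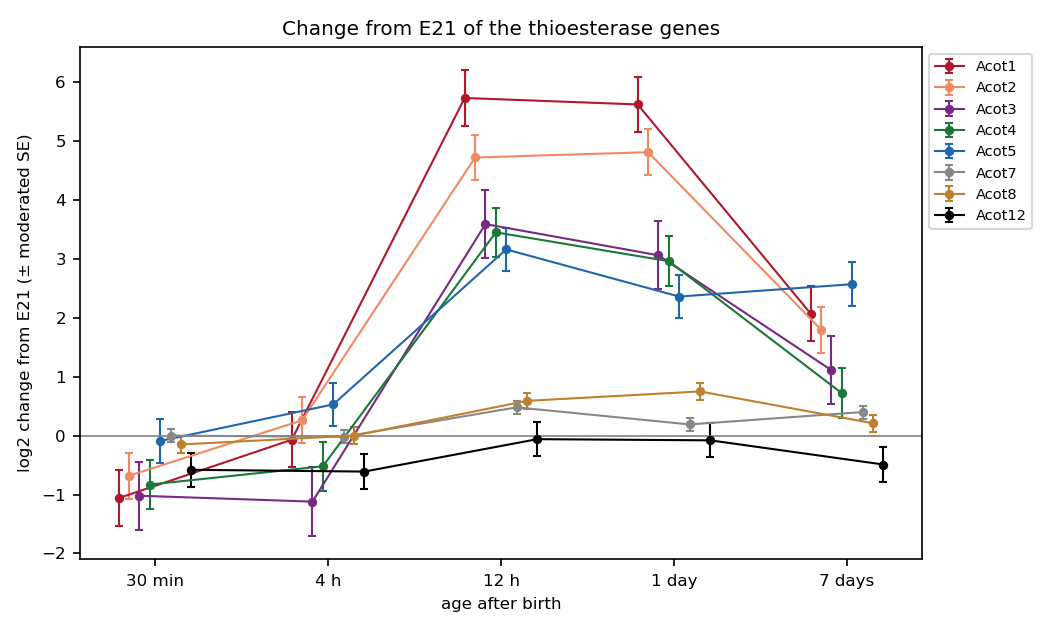
Log2 change from E21 (y axis) of the 8 thioesterase genes at the 5 later ages (x axis), points with moderated standard errors. The 5 genes Acot1 to Acot5 separate from the other 3 at 12 h, where they lie between 3.16 and 5.73.

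Counted over the 7 tested genes, 0 passed at 30 min and 0 at 4 h against E21. Over all genes 0% passed at 30 min in the limma fit, where 1392 had an unadjusted p under 0.05, and 4.71% at 4 h. At 12 h 6 of the 7 were higher than E21, where 3.86% of all genes were, and their median difference was 3.16 against 0.01 over all genes. With readings below 6.72 set to it the median was 2.26. The 6 include Acot8, which lay within the range of silent genes on every array. They also include Acot2, which correlated at 0.996 with Acot1, whose 12 h change was known beforehand. At 1 day 5 were higher (3.37% of all genes), namely Acot2, Acot3, Acot4, Acot5 and Acot8. At 7 days 3 were higher, Acot2, Acot5 and Acot7, where 12.8% of all genes were. None of the 7 was lower than E21 at any of these ages, but few genes were: 2.08% of all genes at 12 h and 10% at 7 days. A count of 0 in 7 therefore does not set the family apart from other genes. Over all 6 ages, 6 of the 7 passed the F test, as did 31.3% of all genes. By ranges alone, with no test, all 3 arrays of the later age lay above all 3 of E21 in 6 of the 7 at 12 h (12.3% of all genes), in 5 at 1 day (12.6%) and in 5 at 7 days (20%). All 3 arrays lay below in 2 at 30 min, Acot3 and Acot4 (6.77% of all genes), and in 1 at 4 h, Acot3 (10.2%). At 7 days against 1 day they lay below in 4, where they did in 16.4% of all genes. These 5 comparisons share the E21 arrays, so their counts are not independent of each other.

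Between successive ages the calls lay in 2 steps. From 30 min to 4 h 0 of the 7 passed (0.983% of all genes), and 6 were higher at 12 h than at 4 h (5.08% of all genes), the same 6 as against E21. Same-numbered arrays of 12 h and 4 h deviated together, and with the replicate number as a block Acot7 (limma adjusted p = 0.0743) and Acot8 (0.0983) lost that call. At 1 day against 12 h 0 of the 7 passed, with 0.037% of all genes called and 1213 at an unadjusted p under 0.05 in limma. With so few genes called, 0 of 7 does not show that the family stood still from 30 min to 4 h or from 12 h to 1 day. Acot2 differed by 0.94 at 4 h against 30 min (limma adjusted p = 0.36), and Acot5 by -0.8 at 1 day against 12 h (0.759). At 7 days against 1 day 4 were lower, Acot2, Acot3, Acot4 and Acot8, where 10% of all genes were.

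The comparisons with 7 days also cross a change in the cells of the liver. The mean of 7 erythroid markers was 9.86 to 10.54 on the 7 day arrays, against 12.68 to 13.83 on the arrays of all earlier ages, and all 7 were lower at 7 days than at E21. In whole liver, fewer cells of a type and less RNA per cell cannot be told apart. Macrophage markers averaged 11.6 to 12.08 at 7 days against 10.33 to 10.68 at E21, and endothelial and stellate markers 11.59 to 12.21 against 10.58 to 10.87. The part of these cells in the 7 day results was not tested. At 12 h none of the 7 erythroid, 8 macrophage and 8 endothelial and stellate markers passed against E21. At 12 h against 4 h the median was -0.79 for endothelial and stellate markers, with Pecam1 lower. It was -0.37 for macrophage and 0.28 for erythroid markers, of which none passed. C1qc and Lyve1 were higher at 4 h than at E21. The part of these cells in the step from 4 h to 12 h was not tested. In addition 7 day replicate 3 read high for some exocrine pancreas markers, with Ctrb1 at 17.8 on that array against 5.59 and 5.25 on the other 7 day arrays. Other markers of that list reached less on any 7 day array, Pnlip at most 5.03, Cela1 7.33 and Cela2a 7.79. Without 7 day replicate 3 the 7 day excess over E21 was 1.94 for Acot2 (limma adjusted p = 0.00718), 2.59 for Acot5 (6.58e-04) and 0.48 for Acot7 (0.0112), so that 3 of 7 still passed. Against 1 day without it, Acot3 lost its call (-1.94, 0.0675), and Acot2 (-2.87, 7.24e-04), Acot4 (-2.25, 0.00627) and Acot8 (-0.48, 0.0483) kept theirs.

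Within an age, the 5 genes Acot1 to Acot5 tended to be high or low on the same arrays. At 12 h replicate 2 was the highest and replicate 3 the lowest of the 3 arrays for each of the 5, at a mean deviation from the age mean of 0.64 and -0.61. At 1 day replicate 1 was the highest for each of the 5, at a mean deviation of 1.03, and replicate 2 averaged -0.76. Acot3 spread most, with 13.29 on 1 day replicate 1 against 10.83 and 10.53 on the other arrays of that age. Acot7 deviated by -0.02 on that array, Acot8 by 0.08 and Acot12 by 0.6. Genes outside the set also read highest on it, so its deviation was not particular to Acot1 to Acot5. Among them were Ppara (13.25 against 11.94 and 11.45), Angptl4 (12.32 against 8.89 and 9.83), Plin2 and Cpt1a. Baat and Nudt7 instead read highest on 1 day replicate 3. What sets these arrays apart was not tested.

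Acot1 to Acot5 lie side by side on rat chromosome 6. In the RefSeq annotation of GRCr8 the protein-coding genes run Papln, Numb, Heatr4, Riox1, Acot2, Acot1, Rpl23al8, Acot4, Acot3, Acot5, Acot6, Dnal1, Pnma1, Mideas and Ptgr2, and Rpl23al8 was not analysed here. Acot6, the last thioesterase of the row, read 5.13, 5.42 and 5.13 at 12 h against 4.55, 4.87 and 4.79 at E21. It rose by 0.49 ± 0.13 (limma adjusted p = 0.0446), yet all its arrays lay within the range of silent genes. Of the flanking genes, Riox1 differed from E21 at 12 h by 0.28 (limma adjusted p = 0.41), Heatr4 by 0.04 (0.904) and Dnal1 by -0.2 (0.629). Farther out, Numb differed by 0.47 (limma adjusted p = 0.0896), and Ptgr2, a prostaglandin reductase, rose by 0.66 (0.0488). The smallest 12 h difference among Acot1 to Acot5 was 3.16, and the other 9 measured genes of the row differed by at most 0.66. Acot7, Acot8 and Acot12 lie on other chromosomes.

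**Figure D4:**
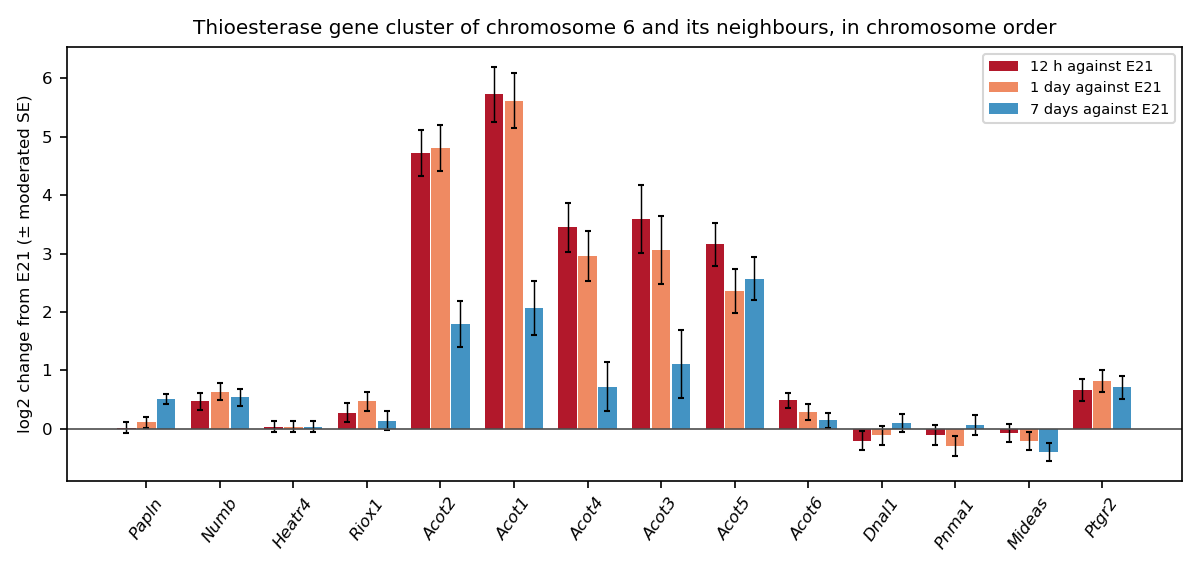
Log2 change from E21 (y axis) at 12 h, 1 day and 7 days for the genes around the thioesterase cluster of chromosome 6, in chromosome order (x axis), bars with moderated standard errors. The 5 tall groups of bars are Acot2, Acot1, Acot4, Acot3 and Acot5, and their neighbours on either side lie within 1 log2 unit of E21. Among the neighbours, Papln, Heatr4, Riox1, Acot6, Dnal1 and Pnma1 averaged below 6.72, so short bars there do not show a flat course.

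Promoter windows, 250 bases before to 50 after the start of the gene, were matched in RefSeq (GRCr8) for 8 of 8 genes, as 9 windows, since Acot7 has 2. They are shown for Acot1 and Acot2, the pair with the largest rise, and for Acot4 and Acot8, whose windows hold the letters searched for. PPAR alpha and other nuclear receptors are known to bind pairs of AGGTCA. The single motif AGGTCA, on either strand (TGACCT), was in 16.2% of all 33469 windows and in those of 4 of the 8 genes, Acot4, Acot5, Acot8 and Acot12. A longer pattern, GGTCA then AGGTC with any 1 base between (on the other strand GACCT then TGACC), is a tandem pair of such motifs less their outer letters. It overlaps AGGTCA, and both patterns were chosen after the windows had been seen. It was in 62 windows, or 0.185%, and in those of 2 of the 8 genes. In Acot4 its match begins at base -12 from the start on the opposite strand, and in Acot8 at base -21 on the gene's own strand. Capitals mark these matches together with the AGGTCA that each overlaps.
Acot1 (chr6:109367024-109367323, plus strand): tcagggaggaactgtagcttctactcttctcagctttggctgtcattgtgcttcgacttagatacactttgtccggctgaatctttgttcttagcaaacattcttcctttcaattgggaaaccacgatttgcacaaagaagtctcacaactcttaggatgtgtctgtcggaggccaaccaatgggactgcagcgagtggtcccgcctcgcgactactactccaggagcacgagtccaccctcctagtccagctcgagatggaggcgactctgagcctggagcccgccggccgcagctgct
Acot2 (chr6:109342590-109342889, plus strand): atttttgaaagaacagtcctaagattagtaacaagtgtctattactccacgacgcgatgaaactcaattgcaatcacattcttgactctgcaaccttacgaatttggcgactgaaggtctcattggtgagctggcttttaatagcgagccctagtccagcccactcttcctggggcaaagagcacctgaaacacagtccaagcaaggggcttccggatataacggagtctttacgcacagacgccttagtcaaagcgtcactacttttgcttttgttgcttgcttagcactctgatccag
Acot4 (chr6:109399604-109399903, plus strand): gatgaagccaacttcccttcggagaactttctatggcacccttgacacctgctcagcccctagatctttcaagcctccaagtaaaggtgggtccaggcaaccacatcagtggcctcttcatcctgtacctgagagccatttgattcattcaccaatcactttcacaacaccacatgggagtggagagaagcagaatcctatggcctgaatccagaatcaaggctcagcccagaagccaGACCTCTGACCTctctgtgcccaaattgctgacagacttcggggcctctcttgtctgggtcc
Acot8 (chr3:173962139-173962438, minus strand): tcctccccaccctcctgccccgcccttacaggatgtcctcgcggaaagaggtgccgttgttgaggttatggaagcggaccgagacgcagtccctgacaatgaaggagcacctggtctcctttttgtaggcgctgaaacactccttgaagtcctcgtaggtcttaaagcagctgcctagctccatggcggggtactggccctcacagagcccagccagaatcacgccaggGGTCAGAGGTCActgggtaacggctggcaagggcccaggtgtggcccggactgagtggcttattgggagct
The windows of Acot1, Acot2, Acot3 and Acot7, at differences of 5.73, 4.72, 3.59 and 0.48 from E21 at 12 h, hold neither pattern. Those of Acot4 at 3.45 and Acot8 at 0.59 hold both, and those of Acot5 at 3.16 and Acot12 at -0.06 hold the single motif only. A match is a run of letters and not a measured binding site, and a window without one leaves the rest of the gene unread.

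The genes whose levels ran most like Acot1 to Acot5, the thioesterases whose age means spanned at least 2 log2 units, were sought among 3225 genes whose age means spanned at least 1 log2 unit, by Pearson's r over the 18 arrays. These r values are set largely by differences between ages and carry no test. For Acot1 they were Tmem120a (0.979), Tor1a (0.965) and Slc25a30 (0.952), and the same 3 led for Acot2 at 0.98, 0.971 and 0.958. For Acot3 they were Pxmp4 (0.948), a peroxisomal membrane protein, Retsat (0.946), the retinol saturase, and Cgref1 (0.945). For Acot4 they were Chrna2 (0.964), Tmem120a (0.962) and Tor1b (0.957), and for Acot5 Acp6 (0.953), Gpd1 (0.949) and Pigu (0.941). Among the thioesterases themselves Acot3 and Acot4 correlated at 0.971, and Acot1 correlated at 0.961 with Acot3, 0.973 with Acot4 and 0.881 with Acot5, at 0.916 with Acot8, 0.664 with Acot7 and 0.402 with Acot12. Once the age means were removed, Acot1 and Acot8 correlated at 0.264 and Acot1 and Acot7 at 0.0429. Pairs of Acot1 to Acot5 with Acot7, Acot8 or Acot12 then ran from -0.173 (Acot2 and Acot7) to 0.616 (Acot4 and Acot8). Acot4 and Acot12 were at 0.612 and Acot5 and Acot8 at 0.587. Pairs among Acot1 to Acot5 ran from 0.561 (Acot2 and Acot4) to 0.913 (Acot1 and Acot2), so the ranges overlapped. Tmem120a averaged 10.69 ± 0.13 at 12 h against 7.16 ± 0.03 at E21 (SD, n = 3 each), and Gpd1, the cytosolic glycerol-3-phosphate dehydrogenase, 16.77 ± 0.04 against 13 ± 0.33.

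Of 12 measured thioesterases outside the 8, 1 was higher at 12 h than at E21, the dim Acot6, and 0 were lower. Of all genes 3.86% were higher and 2.08% lower. Acot9 differed at 12 h by -0.12 (limma adjusted p = 0.82), Acot13 by -0.39 (0.44) and Acot11 by -0.1 (0.783), and Acot11 lay within the range of silent genes. Them4, Them5, Them6, Ppt2 and Olah also averaged below 6.72 at E21 and at 12 h. For such dim genes a missing call does not show a flat course. By 7 days 4 of the 12 were higher than at E21 (12.8% of all genes): Baat, Hibch, Them4 and Ppt1. Baat, which conjugates bile acids with taurine or glycine, read 14.35, 14.58 and 14.4 at 7 days against 11.61, 9.56 and 12.01 at E21. That is a difference of 3.38 ± 0.52 (limma adjusted p = 2.47e-04). Baat was also higher at 1 day, by 2.04 (limma adjusted p = 0.0341), as was Them4 (0.75, 0.032), whose arrays averaged 6.5 at 1 day and 5.76 at E21. All E21 arrays of Them4 and 2 of 3 at 1 day lay within the range of silent genes.

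Genes that make, carry and use acyl-CoA were read alongside. Of 20 measured acyl-CoA synthetases, the enzymes that oppose the thioesterases, 0 were higher and 6 lower at 12 h than at E21. Of all genes 3.86% were higher and 2.08% lower at 12 h. The median of the synthetases was -0.3 against 0.01 over all genes. Acsl4, the arachidonate-preferring member, fell by 1.57 ± 0.24 (limma adjusted p = 0.00131), and Acss2, the cytosolic acetyl-CoA synthetase, fell by 2.67 ± 0.69 (0.0317) to within the range of silent genes. The E21 arrays of Acss2 ran from 7.2 to 11.24 (SD 2.02), and the difference was -3.72 without E21 replicate 1 (limma adjusted p = 6.49e-04), -2.59 without replicate 2 (0.102) and -1.7 without replicate 3 (0.104), so the call is lost without replicate 2 or 3. Acsl1, the main long-chain synthetase of liver, differed by 0.43 (limma adjusted p = 0.554). Of 10 genes of acyl-CoA binding and fatty acid carriage 2 were higher and 0 lower, Fabp2 by 1.46 (at least 1.03 with dim arrays set to 6.72) and Acbd3 by 0.61.

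Of 13 genes of coenzyme A synthesis and breakdown 3 were higher at 12 h than at E21 (3.86% of all genes) and 0 lower (2.08%). Slc25a42, the mitochondrial coenzyme A carrier, read 11.07, 11.1 and 10.99 at 12 h against 7.32, 7.17 and 7.36 at E21, and 3.77 ± 0.48 was its difference (limma adjusted p = 2.72e-04). It was 2.44 above E21 at 1 day (limma adjusted p = 0.00855), where replicate 1, at 11.46, stood above the other arrays at 8.83 and 8.89, and 0.55 above it at 7 days (0.497). Nudt7, the peroxisomal coenzyme A diphosphatase, read 7.94, 7.56 and 7.77 at 12 h against 5.79, 5.81 and 6.16 at E21, a difference of 1.84 ± 0.2 (limma adjusted p = 1.00e-04) and of at least 1.03 with the E21 arrays set to 6.72. At 7 days against 1 day Slc25a42 fell by 1.89 (limma adjusted p = 0.0114), and Nudt7 fell by 1.07 (0.00159), or fell by at least 0.54 with its 7 day arrays set to 6.72. Ppcs was the other gene that rose, and the pantothenate kinase Pank1 differed by 0.59 (0.583).

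Peroxisomal fatty acid oxidation and coenzyme A handling had 7 of 16 measured genes higher at 12 h than at E21 and 0 lower, with a median of 0.71. The shares of all genes were 3.86% higher and 2.08% lower. Crot, the carnitine octanoyltransferase of the peroxisome, read 14.23, 15.32 and 14.61 at 12 h against 12.34, 11.45 and 10.32 at E21 and rose by 3.35 ± 0.47 (limma adjusted p = 5.83e-04). At 7 days Crot was 4.31 above E21 (limma adjusted p = 1.05e-05), where Acot4 was 0.72 above it. Pex11a, of peroxisome division, rose by 2.28 ± 0.4 at 12 h (limma adjusted p = 0.00312) and differed by 0.13 at 7 days (0.886). In mitochondrial beta oxidation and the carnitine shuttle 4 of 19 were higher and 1 lower at 12 h, with a median of 0.3. Cpt1a, the gate of long-chain fatty acids into the mitochondrion, read 16.53, 16.57 and 16.37 at 12 h against 14.19, 13.9 and 12.17 at E21, a rise of 3.07 ± 0.49 (limma adjusted p = 0.00162). Crat, the carnitine acetyltransferase, rose by 1.67 ± 0.3 (limma adjusted p = 0.00351).

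Of the 18 measured PPAR alpha targets, a list that shares genes with the 2 oxidation lists, 5 were higher and 0 lower at 12 h than at E21, with a median of 0.89. In that comparison 3.86% of all genes were higher and 2.08% lower. Plin2, the lipid droplet coat protein, read 16.46, 16.73 and 16.35 at 12 h against 9.46, 10.33 and 11.09 at E21, a rise of 6.22 ± 0.53 (limma adjusted p = 6.07e-06). Ppara itself read 12.21, 12.13 and 11.94 at 12 h against 12.1, 12.55 and 12.41 at E21, with overlapping ranges and a difference of -0.26 ± 0.34 (limma adjusted p = 0.813). Of the 13 genes of PPAR alpha and its partners 1 was lower, the coactivator Ppargc1b (-1.4, limma adjusted p = 0.0291), and 0 were higher. Against 4 h the counts at 12 h were larger in several lists, where 5.08% of all genes were higher and 3.82% lower. Mitochondrial beta oxidation had 10 of 19 higher and 0 lower (median 0.94), the PPAR alpha targets 11 of 18 and 0 (1.56), the peroxisomal list 8 of 16 and 0 (1.3) and coenzyme A synthesis and breakdown 6 of 13 higher and 1 lower (0.5). The synthetases had 2 higher and 3 lower of 20 (-0.23), the binding genes 3 and 0 of 10 (0.31), and PPAR alpha with its partners 2 and 3 of 13 (-0.03). The lists were drawn up with earlier results of these arrays known, and their counts are descriptions.

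At 7 days against E21, 12.8% of all genes were higher and 10% lower. The synthetases had 3 higher and 2 lower of 20, the binding genes 2 and 0 of 10, coenzyme A synthesis and breakdown 1 and 0 of 13, and PPAR alpha with its partners 2 and 1 of 13. The PPAR alpha targets had 5 higher and 1 lower of 18, mitochondrial oxidation 6 and 1 of 19, and the peroxisomal list 3 and 0 of 16. Among the synthetases Acss1, a mitochondrial acetyl-CoA synthetase, fell by 3.34 (limma adjusted p = 1.82e-06) and Acsm3, a medium-chain one, fell by 2.47 (0.0112). Hadh, the short-chain hydroxyacyl-CoA dehydrogenase, was 1.85 above E21 (limma adjusted p = 5.65e-05) and Fabp1, the fatty acid carrier of liver, 2.15 above it (0.00615). Plin2 was 2.53 above E21 (limma adjusted p = 0.0025), Angptl4 2.38 (0.0464), Cpt1a 1.44 (0.0465), Abcd2 2.08 (3.73e-04), Acbd3 0.56 (0.0248) and Pank3 0.72 (0.00809). Hnf4a, a receptor that marks the mature hepatocyte, was 1.01 above it (limma adjusted p = 0.0113), and Ppargc1b fell by 1.52 (0.00556). Nudt7 at 0.27 (limma adjusted p = 0.417) did not pass, as Acot3 and Acot4 did not.

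**Figure D5:**
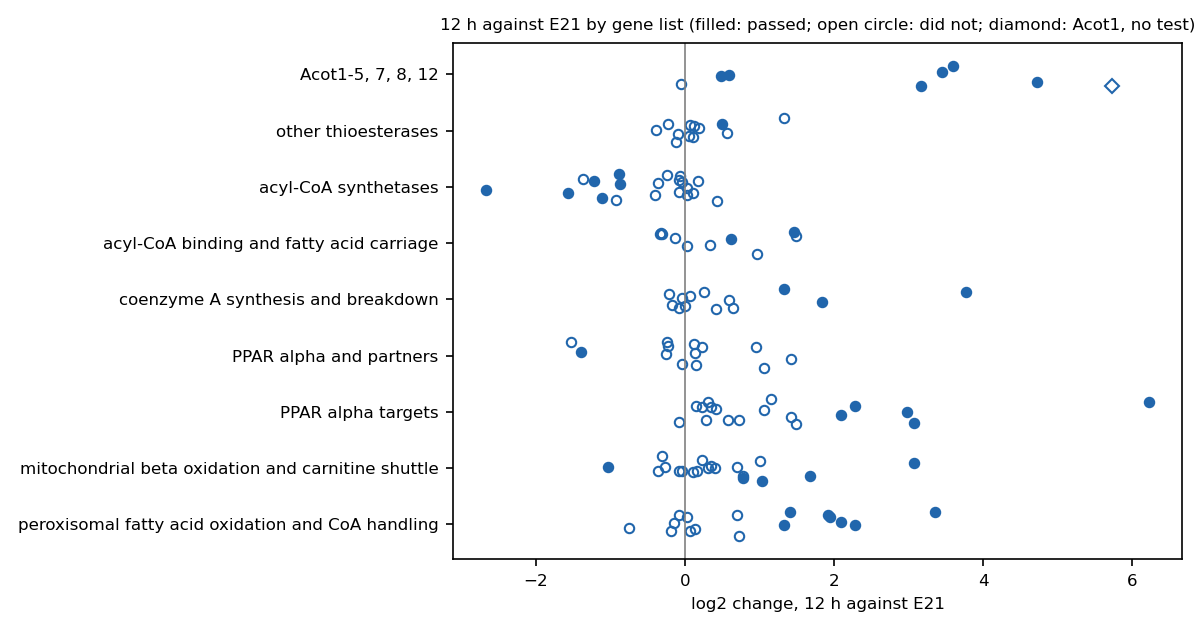
Log2 change at 12 h against E21 (x axis) of every measured gene in the thioesterase set and 8 other lists (rows). Filled points passed the limma test, open circles did not, and the diamond is Acot1, given with no test. Acot1 to Acot5 lie from 3.16 to 5.73, and the 6 synthetases that passed lie left of 0.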

How the data were processed

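Rat liver RNA was measured in 18 samples, 3 per age. The deposited values are linear intensity values per transcript cluster for 24753 features, made by the authors with RMA and Affymetrix Expression Console 1.0, per the submitters' processing notes. The annotation release is not given in the sources used here. Intensities ran from 4.24 to 999969 with array medians of 61.9 to 65.5, and 272 to 328 features per array exceeded 65535, the limit of a 16-bit scanner, so folds are those of the deposited scale. The platform annotation gave 1 symbol to 19837 features, several to 420 and none to 4496. The brightest cluster per gene left 18926 genes.

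Log2 intensities were fitted with limma 3.58.1 in R 4.3.3, a mean per age over 18 arrays, 12 residual and 3.05 prior degrees of freedom, no block, and contrasts of each later age with E21 and of successive ages. The fit was tested on simulated data. Only 3 arrays per age limit precision, and no detection calls were used. Genes named besides the 8 are the 2 members per list of the largest passed change at 12 h and at 7 days, Ppara, Cpt1a, cluster neighbours, the 3 most alike per gene and the other thioesterases. Acsl1, Pank1 and Ppcs were added after their values were seen. The members and lists were chosen with earlier results of these data known. The 6.72 bound was chosen after values were seen. Same-numbered arrays deviated together in every pair for 4 h and E21 (r of 0.107 to 0.292) and for 12 h and 4 h (0.15 to 0.298), and in no other comparison. The labels call the numbers biological replicates and do not say whether equal numbers pair arrays across ages. Alternatives were quantile normalization, median centring, all clusters averaged, a filter on dim genes, array weights, another prior, 2-age fits, a replicate block and arrays left out.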

Additional observations from a re-analysis of the deposited data

How the results depend on the processing

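Over 936 settings of the differences of the 7 tested genes, 897 kept their side of the threshold, 36 lost a call and 3 gained one. Of the 897, 861 kept their direction, and the other 36, which passed in neither fit, changed sign. Of 135 settings of Acot1, 6 changed sign, all of differences of at most 0.11. The number of the 7 tested genes that passed at 1 day against E21 was 5, and 0 with a replicate block, where the adjusted p of Acot2 was 0.0563. At 7 days against E21 it was 3, and 5 with only the 2 ages in the fit, which added Acot3 (0.00466) and Acot4 (0.024). The cause was not tested. Leaving out 1 array at a time gave 4 to 6 at 12 h against E21 and against 4 h, 5 at 1 day against E21, 2 to 3 at 7 days against E21, 3 to 4 at 7 days against 1 day, and 0 in the other comparisons. The block left 4 at 12 h against E21, without Acot7 and Acot8, whose calls 2-age fits also lost, and 3 at 7 days against E21, where Acot3 passed with it (0.0159) and Acot7 no longer did (0.0922). Same-numbered arrays of E21 and 12 h did not deviate together (r of -0.142 to -0.0308). The filter on dim genes removed Acot8, whose mean of 6.12 lay under 6.35, and left 5 at 12 h against E21. With replicate 1 of E21 and the third replicates of 30 min and 4 h left out at once, 6 passed at 12 h. Signal limits Acot1, Acot5, Acot7 and Acot8, which lay near or within the range of silent genes at E21 on at least 2 arrays.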
